A study of Mus musculus with 6 samples.

Results

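The MHC class I presentation genes were followed as a group of 10 genes out of the 22183 in the count table, and each of the 10 symbols matched 1 row. They were chosen by name, for their place in class I antigen presentation: the heavy chains H2-D1, H2-K1, H2-Q4, H2-T22 and H2-T23, the light chain B2m, the peptide transporter and loading genes Tap1, Tap2 and Tapbp, and the transactivator Nlrc5. The study compared peritoneal endothelial cells (ECs) of mice given daily intraperitoneal PD fluid, a high-glucose peritoneal dialysis solution, with those of mice given saline. There were 3 PD mice and 3 saline mice, each a separate library, all wild type C57BL/6J males aged 8 to 10 weeks at use, and both groups were treated for 6 weeks. Neither the labels nor the methods describe kidney failure in these animals. The labels describe the cells as CD31+ cells from peritoneal tissue collected by magnetic sorting, while the study's supplementary methods describe flow sorting of CD31+ CD45- cells from the mesentery.

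MHC class I molecules display peptides made inside the cell to CD8 T cells and natural killer cells. Proteasomes cut the peptides, the TAP transporter (Tap1 with Tap2) carries them into the endoplasmic reticulum, tapasin (Tapbp) holds the empty heavy chain beside the transporter, and a filled heavy chain leaves for the surface only with beta 2 microglobulin (B2m). Most nucleated cells carry these molecules, ECs and leukocytes among them, and interferons raise them. In bulk RNA of this kind, fewer cells of a type and less RNA per cell cannot be told apart.

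The promoters of class I genes share a module bound by RFX proteins, CREB or ATF1 and NF-Y, through which NLRC5 acts, and many also carry an interferon response element. RefSeq windows on GRCm38.p6, from 250 bases before to 50 bases after the annotated start, were in hand for 8 of the 10 genes, and Tap2 and Nlrc5 had none. The 250 bases before the start are shown for 5 genes because they cover the heavy chains with the higher counts and their light chain, among them H2-D1, which rose, and H2-T22 and H2-T23, which fell. They lie at chr17:35262844-35263093 on the plus strand (H2-D1), chr17:34000348-34000597 on the minus strand (H2-K1), chr2:122147437-122147686 on the plus strand (B2m), chr17:36042743-36042992 on the minus strand (H2-T22) and chr17:36032702-36032951 on the minus strand (H2-T23). The RefSeq starts of H2-D1, H2-T23 and Tapbp lie inside the GENCODE spans of these genes given further on. Each reads 5′ to 3′ along the gene, with matches to 2 copies of GAAA with 2 bases between them (an interferon response core), TGACG (a CREB and ATF site) and CCAAT (an NF-Y site) on either strand in capitals, so that CCAAT on the other strand reads ATTGG.
H2-D1: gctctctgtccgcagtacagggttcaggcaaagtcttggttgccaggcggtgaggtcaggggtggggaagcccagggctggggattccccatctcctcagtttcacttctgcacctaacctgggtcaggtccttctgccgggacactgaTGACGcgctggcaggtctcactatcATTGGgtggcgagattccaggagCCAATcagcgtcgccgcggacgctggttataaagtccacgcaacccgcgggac
H2-K1: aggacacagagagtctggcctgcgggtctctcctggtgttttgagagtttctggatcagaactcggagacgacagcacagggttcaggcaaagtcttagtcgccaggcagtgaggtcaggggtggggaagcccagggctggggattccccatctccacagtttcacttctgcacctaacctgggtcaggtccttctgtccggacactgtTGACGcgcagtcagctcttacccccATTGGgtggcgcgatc
B2m: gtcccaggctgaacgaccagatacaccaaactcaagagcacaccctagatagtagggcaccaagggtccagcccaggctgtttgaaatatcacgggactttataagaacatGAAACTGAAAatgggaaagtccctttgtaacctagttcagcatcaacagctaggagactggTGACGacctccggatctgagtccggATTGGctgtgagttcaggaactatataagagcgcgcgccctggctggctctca
H2-T22: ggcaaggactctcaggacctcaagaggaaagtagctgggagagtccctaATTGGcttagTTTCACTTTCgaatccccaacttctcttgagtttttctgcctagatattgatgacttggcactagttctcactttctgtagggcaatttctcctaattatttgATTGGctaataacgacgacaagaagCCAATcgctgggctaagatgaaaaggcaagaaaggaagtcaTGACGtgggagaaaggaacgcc
H2-T23: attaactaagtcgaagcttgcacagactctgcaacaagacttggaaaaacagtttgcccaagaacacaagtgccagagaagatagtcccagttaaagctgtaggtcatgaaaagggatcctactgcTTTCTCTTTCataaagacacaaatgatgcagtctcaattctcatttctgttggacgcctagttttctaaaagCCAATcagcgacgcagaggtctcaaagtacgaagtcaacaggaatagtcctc

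In H2-D1, H2-K1 and B2m, TGACG and ATTGG stood exactly 20 bases apart, with TGACG beginning 101, 41 (55 in a second window) and 78 bases before the start. This spacing was noticed in these windows and then searched for. It was found in 31 of 32851 RefSeq windows of the same length (0.0944%). None of the windows of H2-T22, H2-T23, H2-Q4, Tap1 and Tapbp held it. Because the spacing was picked from these windows, its rarity elsewhere is not a test of it. The windows of H2-D1 and H2-K1 also read alike over long stretches, so their matches are not separate observations. The single motifs were more common, with TGACG in 20.8% and CCAAT in 37.4% of all windows. The interferon response core was in 3.44% of all windows, and among the 8 genes it was in H2-T22, H2-T23 and B2m, beginning 191, 124 and 139 bases before the start. A match is a description of these letters and not evidence of binding. Only exact matches were searched for, so a window without one is not shown to lack a site.

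The libraries held 21973426 to 26374292 counts per mouse, and in both groups the EC markers summed to far less than the pan-leukocyte markers. The 12 endothelial markers summed to 716 to 739 CPM (counts relative to library size, after TMM scaling) in saline mice and 1392 to 1472 CPM in PD mice, and 12 of 12 rose. The 12 pan-leukocyte markers, led by Lcp1 and Arhgdib, summed to 14377 to 15063 CPM in saline mice and 10577 to 10974 CPM in PD mice, with 11 lower and 1 higher. The 10 B cell markers fell from 7501 to 7850 CPM to 3607 to 3632 CPM, with 10 of 10 lower, whereas the 10 macrophage markers rose from 2649 to 2793 CPM to 10989 to 11909 CPM, with 10 of 10 higher. The 10 pancreatic acinar markers summed to 4.45 to 10.5 CPM and 9581 to 13554 CPM, and 10 of 10 rose. The T and NK cell list summed to 2843 to 2943 CPM and 2287 to 2529 CPM, with 2 of 12 higher and 5 lower. The 6 plasma cell markers summed to 1564 to 1670 CPM and 2469 to 2846 CPM, with 4 higher and 1 lower. The 8 dendritic cell markers summed to 639 to 676 CPM and 609 to 626 CPM, with 5 higher and 1 lower. The 8 fibroblast markers summed to 95.0 to 103 CPM and 853 to 889 CPM, and the 8 mesothelial markers to 32.0 to 38.1 CPM and 221 to 254 CPM, with 8 of 8 higher in each list. The 6 lymphatic endothelial markers summed to 156 to 171 CPM and 626 to 715 CPM, with 6 of 6 higher, and the 7 neutrophil markers to 17.5 to 20.7 CPM and 205 to 219 CPM, with 5 of the 6 tested higher. No listed marker was at 0 in every mouse. These markers moved with the treatment, and their part in the class I results was not tested.

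As a group, the class I genes were abundant and changed little. Of the 10 genes, 10 passed the filter on low counts and 4 passed the test, with H2-D1 and Nlrc5 higher and H2-T22 and H2-T23 lower in PD mice (edgeR's quasi-likelihood test, Benjamini-Hochberg adjusted p under 0.05). Across the table, 58.9% of 14005 tested genes passed, 31.1% higher and 27.8% lower, so that the share of class I genes called lay below this background, a difference that was not tested. The median log2 fold change of the 10 genes was 0.07, beside 0.02 over all tested genes, and the median size of the change in either direction was 0.18, beside 0.40. Together the 10 genes took 1.31% ± 0.03 of all counts in saline mice and 1.45% ± 0.04 in PD mice (SD, n = 3 each). In 4 of the 10 the CPM values of the groups did not overlap, beside 65.6% of all tested genes. Leaving out 1 mouse moved the number called to 2 (without saline mouse 1, PD mouse 1 or PD mouse 2) or to 5 (without saline mouse 2 or PD mouse 3).

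**Figure D1:**
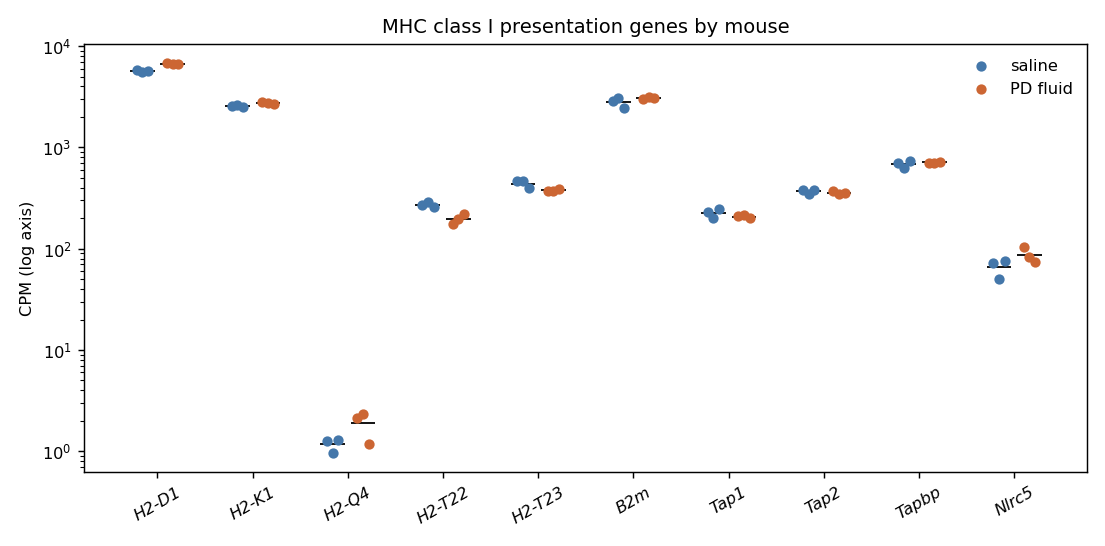
CPM of the 10 class I genes in each mouse on a log axis, saline mice in blue and PD mice in orange, with a line at the mean of each group of 3. The PD points lie above the saline points for H2-D1 and H2-K1 and below them for H2-T22 and H2-T23, and the groups overlap for the other 6 genes.

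These directions depend on what the libraries are scaled to. Scaled to the 12 endothelial markers, the median of all tested genes moved to -1.03 and 9 of the 10 class I genes were called lower, from -0.63 for Nlrc5 to -1.51 for H2-T22, with H2-Q4 at -0.35 and not called. Scaled to the 12 pan-leukocyte markers, the median of all genes moved to 0.46 and 9 of 10 were called higher, from 0.22 for H2-T23 to 1.13 for H2-Q4, with H2-T22 at -0.02 and not called. Another scaling adds about the same amount to the log2 change of every gene, so relative to the median of all genes the values are the same by construction: 0.22 for H2-D1, 0.40 for Nlrc5, -0.48 for H2-T22 and -0.24 for H2-T23. The fold changes that follow are on the TMM scale, and rose and fell refer to that scale.

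**Figure D2:**
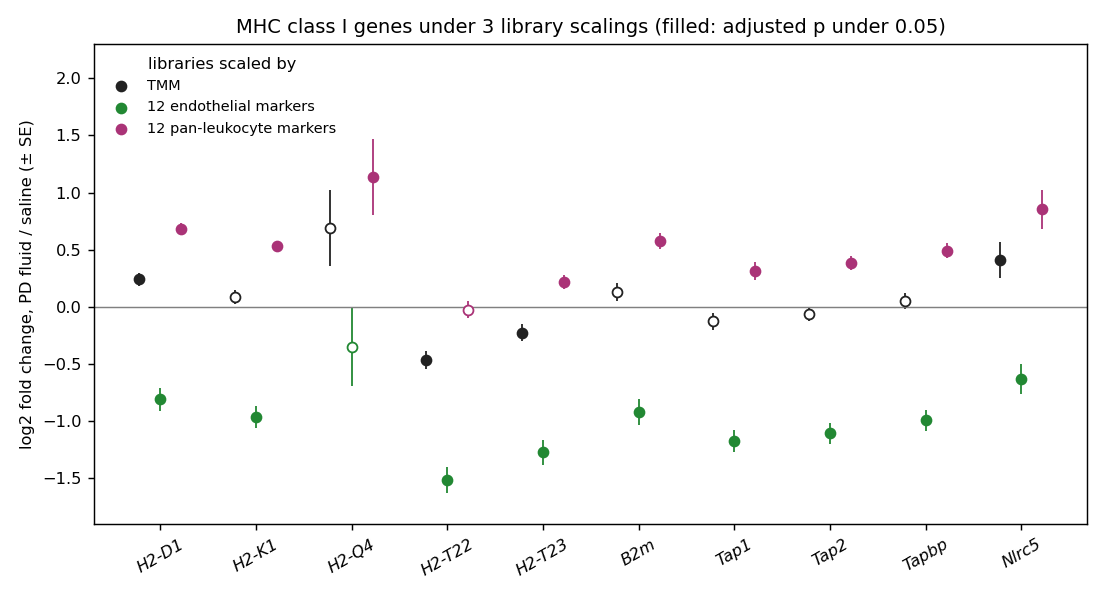
Log2 fold change of PD mice over saline mice, with its standard error, for the 10 class I genes after scaling the libraries by TMM (black), to 12 endothelial markers (green) or to 12 pan-leukocyte markers (purple), with filled points for an adjusted p under 0.05. The 3 scalings shift all genes up or down together which by construction leaves the spacing between genes, with H2-T22 lowest in each.

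H2-D1 and H2-K1 encode the classical heavy chains of this strain, which present peptides to CD8 T cells. H2-D1 (ENSMUSG00000073411, chr17:35262730-35267499) was at 5790, 5601 and 5638 CPM in saline mice and at 6744, 6674 and 6699 CPM in PD mice. Every PD mouse was above every saline mouse, and the mean rose from 5676 ± 100.3 to 6705 ± 35.4 CPM (SD, n = 3). The log2 fold change was 0.24 ± 0.06 (SE), an increase of 18.1%, with an adjusted p of 0.00476 by edgeR's quasi-likelihood test after Benjamini-Hochberg adjustment. Leaving out any 1 of the 6 mice kept the call, with values of 0.23 to 0.26.

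H2-K1 (ENSMUSG00000061232, chr17:33996017-34000347) was at 2577, 2649.95 and 2524 CPM in saline mice and 2796, 2724 and 2711 CPM in PD mice. The groups did not overlap, but the log2 difference of 0.09 ± 0.06 (SE) did not pass edgeR's quasi-likelihood test (Benjamini-Hochberg adjusted p = 0.214). Counted within each library, H2-D1 gave 225, 211 and 223 reads per 100 H2-K1 reads in saline mice and 241, 245 and 247 in PD mice. This ratio needs no scaling of the libraries. In all, 6 such ratios were compared, chosen after the values were seen, and 5 did not overlap between groups, a share not set against other gene pairs. For each of the 5 the two-sided exact permutation p was 0.1, which is the smallest this design can give, and the Benjamini-Hochberg adjusted value was 0.12.

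H2-T22, H2-T23 and H2-Q4 are non-classical heavy chains. H2-T22, known as a ligand of some gamma delta T cells, was at 267, 287 and 259.8 CPM in saline mice and at 176, 195 and 218 CPM in PD mice (ENSMUSG00000056116, chr17:36037128-36042747). All PD mice were below all saline mice, with the mean 27.6% lower on the fitted scale. The log2 fold change was -0.47 ± 0.08 (SE) with an adjusted p of 0.000568 by edgeR's quasi-likelihood test after Benjamini-Hochberg adjustment, and leaving out any 1 mouse kept the call, with values of -0.54 to -0.39. Of the 100-base words of its transcripts, 8.86% also occurred in other genes, 6.92% in H2-T10, a near copy without a row in the table, so reads of H2-T10 may be counted here.

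H2-T23 encodes Qa-1, the ligand of the inhibitory receptor CD94/NKG2A on natural killer cells. It was at 464, 463 and 393 CPM in saline mice and 371, 368 and 392 CPM in PD mice (ENSMUSG00000067212, chr17:36029773-36032855). The groups did not overlap, but saline mouse 3 and PD mouse 3 were close to each other. The log2 fold change was -0.22 ± 0.07 (SE) with an adjusted p of 0.0217 by edgeR's quasi-likelihood test after Benjamini-Hochberg adjustment. The call was lost without saline mouse 1 (adjusted p = 0.109 by edgeR), PD mouse 1 (0.0516) or PD mouse 2 (0.0975). Its transcripts share 3.15% of their 100-base words with other genes.

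H2-Q4 was barely expressed, at 32, 21 and 31 counts in saline mice and 58, 56 and 26 counts in PD mice (ENSMUSG00000035929, chr17:35379617-35385290). PD mouse 3 lay within the saline range and the other PD mice above it. Its log2 difference of 0.69 ± 0.33 (SE) did not pass edgeR's quasi-likelihood test (Benjamini-Hochberg adjusted p = 0.0934), and without PD mouse 3 it was 0.94 with an adjusted p of 0.0285 by edgeR. Shared 100-base words came to 2.16% for H2-Q4, most often with H2-Q6, to 3.59% for H2-D1, most often with H2-Q1, and to 0.957% for H2-K1, with H2-Q10.

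Set against H2-D1 within each library, both T-region chains were lower in PD mice. H2-T22 gave 4.62, 5.12 and 4.61 reads per 100 H2-D1 reads in saline mice and 2.61, 2.93 and 3.25 in PD mice, a log2 ratio of -0.71. H2-T23 gave 8.01, 8.27 and 6.98 in saline mice and 5.50, 5.51 and 5.85 in PD mice, a log2 ratio of -0.46. In FPKM, which divides by gene length, H2-D1 made up 56.6% ± 0.95 of the summed level of the 5 heavy chains in saline mice and 60.5% ± 0.06 in PD mice (SD, n = 3). The share of H2-T22 was 3.21% ± 0.15 and 2.11% ± 0.23, and that of H2-T23 6.06% ± 0.47 and 4.72% ± 0.16. H2-K1 held 34.1% ± 0.60 and 32.6% ± 0.39. The shares of H2-D1, H2-K1, H2-T22 and H2-T23 did not overlap between the groups, and the CPM of 65.6% of all tested genes did not either. Shares of a fixed total are tied to each other, so a larger H2-D1 share lowers the others. The H2-K1 share was lower in PD mice although its mean FPKM was 1672 in saline mice and 1776.5 in PD mice.

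**Figure D3:**
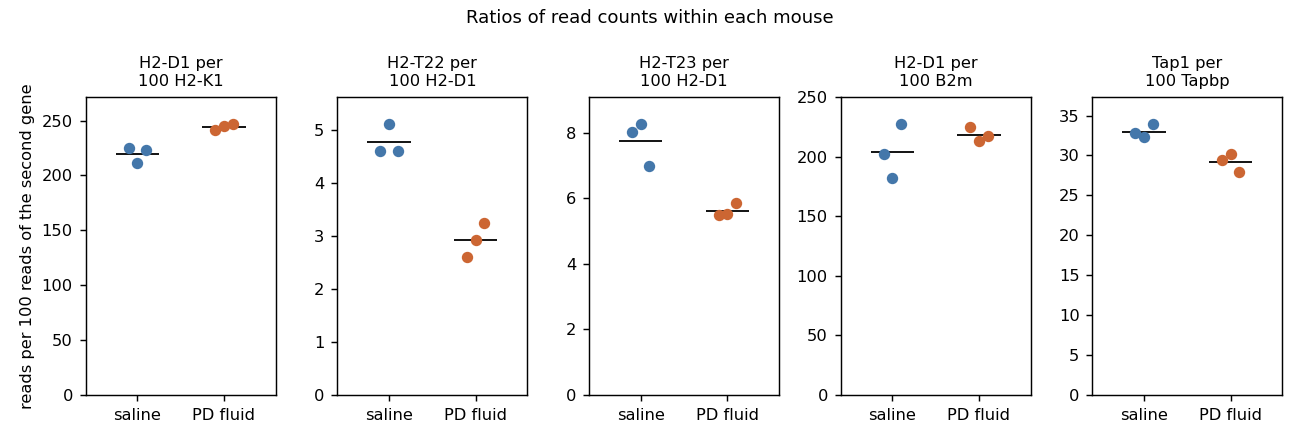
Reads of one gene per 100 reads of another within each mouse, saline mice in blue and PD mice in orange, with a line at the mean of 3 mice and axes that start at 0. H2-T22 and H2-T23 per 100 H2-D1 reads and Tap1 per 100 Tapbp reads are lower in every PD mouse than in any saline mouse, H2-D1 per 100 H2-K1 reads is higher, and H2-D1 per 100 B2m reads overlaps.

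B2m, the light chain that every heavy chain above needs at the surface, was at 2859, 3069 and 2477 CPM in saline mice and 2996, 3133 and 3082 CPM in PD mice (ENSMUSG00000060802, chr2:122147686-122153083). Saline mouse 2 lay inside the PD range, so the groups overlapped. The log2 difference was 0.13 ± 0.08 (SE), with an adjusted p of 0.170 by edgeR's quasi-likelihood test after Benjamini-Hochberg adjustment. Without saline mouse 2 it was 0.20, with an adjusted p of 0.0248 by edgeR. H2-D1 reads per 100 B2m reads were 203, 182 and 228 in saline mice and 225, 213 and 217 in PD mice, which overlapped (two-sided exact permutation p = 0.4).

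The transport and loading genes showed no called change. Tap1 was at 228, 203 and 248 CPM in saline mice and 208, 213 and 200.2 CPM in PD mice (ENSMUSG00000037321, chr17:34187553-34197225). Its groups overlapped through saline mouse 2, and the log2 difference was -0.13 ± 0.08 (SE) with an adjusted p of 0.170 by edgeR's quasi-likelihood test after Benjamini-Hochberg adjustment. Without saline mouse 2 it was -0.20, with an adjusted p of 0.0206 by edgeR. Tap2, the other TAP subunit, was at 378, 349 and 381 CPM in saline mice and 368, 343 and 354 CPM in PD mice (ENSMUSG00000024339, chr17:34203527-34216321). These groups overlapped as well, at a log2 difference of -0.06 ± 0.06 (SE). Tapbp was at 697, 629 and 730.0 CPM in saline mice and 708, 706 and 717 CPM in PD mice (ENSMUSG00000024308, chr17:33915899-33929292), with every PD mouse inside the saline range and a log2 difference of 0.05 ± 0.07 (SE). Within each library Tap1 gave 32.8, 32.3 and 34.0 reads per 100 Tapbp reads in saline mice and 29.5, 30.2 and 27.9 in PD mice, without overlap, a log2 ratio of -0.18.

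Nlrc5 encodes the class I transactivator, which is induced by interferon gamma. It was at 71.7, 49.8 and 74.9 CPM in saline mice and 105 (PD mouse 1), 82.5 and 74.0 CPM in PD mice (ENSMUSG00000074151, chr8:94434356-94527272). Saline mouse 2 was the lowest and PD mouse 1 the highest, and PD mouse 3 lay below saline mouse 3, whereas in FPKM the groups did not overlap (8.37 to 11.3 and 11.8 to 17.0). The log2 fold change was 0.41 ± 0.16 (SE) with an adjusted p of 0.0406 by edgeR's quasi-likelihood test after Benjamini-Hochberg adjustment. The call rested on single mice. It was lost without saline mouse 1 (adjusted p = 0.0515 by edgeR), saline mouse 2 (0.0997), PD mouse 1 (0.184) or PD mouse 2 (0.0644), and the value fell to 0.25 without saline mouse 2.

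Per length, the class I genes lay between the 46.4th percentile of the table in saline mice (H2-Q4) and its top (B2m). B2m, at 3244 ± 323 FPKM in saline mice (SD, n = 3), ranked 12 among the 22183 genes, H2-D1 at 2780 ± 67.1 FPKM ranked 14 and H2-K1 at 1672 ± 20.4 FPKM ranked 23. H2-T23 (298 ± 25.8 FPKM) and Tapbp (258 ± 20.7 FPKM) followed, and these neighbours overlapped in saline mice. In PD mice their order was turned, with Tapbp at 269 ± 6.08 and H2-T23 at 257 ± 5.34 FPKM and no overlap. H2-T22 (158 ± 6.84 FPKM) stood apart from Tap2 (108 ± 6.12 FPKM) in saline mice, and in PD mice H2-T22 (115 ± 9.03 FPKM) and Tap2 (105 ± 4.87 FPKM) overlapped. Tap1 (78.3 ± 8.76 FPKM), Nlrc5 (10.3 ± 1.66 FPKM) and H2-Q4 (0.653 ± 0.109 FPKM) came last in both groups, each apart from the next.

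Likeness among the genes was measured as the root mean square difference of log2 CPM over the 6 mice, each gene centred on its saline mean. The nearest neighbours were Tap1 and Tap2 (0.08), H2-K1 and B2m (0.09), and Tapbp and H2-K1 (0.09). H2-D1 was nearest to H2-K1 (0.11) and H2-T23 to Tap2 (0.16). H2-T22 was nearest to H2-T23 (0.20), Nlrc5 to H2-D1 (0.26) and H2-Q4 to Nlrc5 (0.27), so these 3 had no close partner in the group. The 5 genes outside the group nearest to the mean profile of the 10 were Pwwp3a, Xpnpep3, Marchf5, Tkt and Epb41l2, at 0.03 each, a profile that differs little between the groups.

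Around these genes, a wider list of 83 genes of the class I pathway was read in the same fit. Of these, 81 were in the table and 71 had enough counts to be tested, of which 16 rose, 27 fell and 28 were not called. The share called was near the 58.9% of all tested genes. Over all tested genes 31.1% were higher and 27.8% lower, and this difference in direction was not tested. The median log2 fold change of the 71 genes was -0.12. Scaled to the endothelial markers, where 10372 of all 14005 tested genes were lower, 3 were higher and 65 lower, and scaled to the pan-leukocyte markers, where 8683 of all tested genes were higher, 46 were higher and 0 lower by edgeR, with 1 lower at an unadjusted p under 0.05 by the same test.

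Peptides for class I are cut by proteasomes, in which interferon-induced subunits can replace the constitutive ones. Of 8 genes of the immunoproteasome and proteasome activators, 7 fell, with a median log2 fold change of -0.30 and with 27.8% of all tested genes lower, and Psme3 at -0.16 was not called. On the endothelial scale 8 of 8 were lower, beside 10372 of all 14005 tested genes. On the pan-leukocyte scale the direction turned, with 3 called higher, beside 8683 of all tested genes. Psmb9, an immunoproteasome subunit encoded beside Tap1, changed by -0.40 ± 0.06 (SE), from 165 ± 5.98 to 125 ± 4.06 CPM (SD, n = 3). Psme4, an activator, changed by -0.37 ± 0.13 and lost its call without any of saline mouse 3, PD mouse 1, PD mouse 2 or PD mouse 3 (adjusted p of 0.0515 to 0.0837 by edgeR). The other immunoproteasome subunits were at -0.36 (Psmb8) and -0.18 (Psmb10), and Psmb10 kept its call in 1 of the 6 fits that left out a mouse. Removing saline mouse 3, PD mouse 1 or PD mouse 2 left 5 of 8 lower. Of the constitutive counterparts, Psmb6 fell by 0.46 on the log2 scale, while Psmb5 (0.10) and Psmb7 (-0.08) were not called. H2-D1 reads per 100 Psmb9 reads were 3448, 3332 and 3576 in saline mice and 5575, 5348 and 5189 in PD mice.

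Chaperones and trimming enzymes were mostly not called, whereas 58.9% of all tested genes were called. Of 9 other chaperones, Hspa5 (0.46) and Calr (0.29), the binding protein BiP and the calreticulin of the loading complex, rose, and Bcap31 (-0.39), an export receptor of the endoplasmic reticulum, fell. Of 8 peptidases, Thop1 (0.55) rose and Nrdc (-0.26) fell, and Erap1, the main trimming enzyme of the endoplasmic reticulum, was at -0.14 and not called. On the endothelial scale 9 of 9 chaperones and 8 of 8 peptidases were lower, beside 10372 of all 14005 tested genes. On the pan-leukocyte scale 8 of each were higher, beside 8683 of all tested genes.

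Among the other heavy chains of the H2 region, 13 of 14 were in the table and 9 were tested. Of these, 1 rose and 3 fell, beside 31.1% higher and 27.8% lower over all tested genes. H2-M9 rose from 14, 9 and 14 counts to 46, 48 and 50 counts (log2 fold change 1.93 ± 0.33, SE). H2-Q2 (-0.97), H2-T24 (-0.60) and H2-M3 (-0.45), which presents formylated bacterial peptides, fell, and these 4 calls held when any 1 mouse was left out. H2-M3 is also the only other gene of the pathway lists with the 20-base spacing of TGACG and ATTGG in its window. H2-Q6 and H2-Q7, which encode Qa-2 antigens, were at -0.02 and -0.11 and not called. On the pan-leukocyte scale 4 of the 9 were higher, beside 8683 of all 14005 tested genes. On the endothelial scale 7 were lower and 1 higher, beside 10372 and 1047 of all tested genes.

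Class I-like molecules outside the H2 region, which share the fold but not the peptide cargo, moved in both directions. Of 4 tested, 2 rose and 2 fell, beside 58.9% of all tested genes called. Fcgrt, the neonatal Fc receptor that recycles IgG and albumin, rose from 230 ± 2.96 to 523 ± 36.2 CPM (SD, n = 3), a log2 fold change of 1.18 ± 0.07 (SE). Hfe, a regulator of iron uptake, rose from 32.5 ± 1.95 to 84.1 ± 2.59 CPM, a log2 fold change of 1.37 ± 0.08. The products of all 4 tested genes, those that rose and those that fell, pair with the same light chain, B2m. Cd1d1, which presents lipids to NKT cells, changed by -0.60 ± 0.08, and Mr1, which presents vitamin metabolites to MAIT cells, by -0.32 ± 0.10, and the call of Mr1 was lost without saline mouse 2 or PD mouse 2 (adjusted p of 0.0552 and 0.0805 by edgeR). On the endothelial scale Fcgrt was at 0.14 and not called and Hfe at 0.32 and called, and on the pan-leukocyte scale Mr1 was at 0.12 and Cd1d1 at -0.16, neither called.

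**Figure D4:**
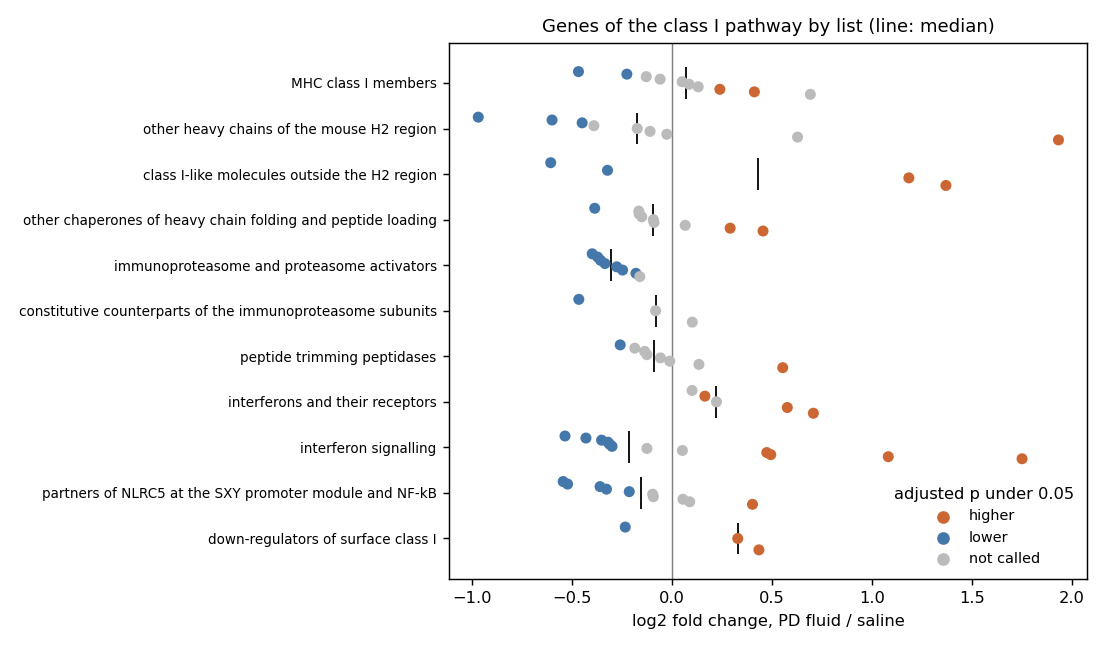
Log2 fold change on the TMM scale of the 10 class I genes and of the 71 tested genes of the wider pathway, one row per list, with a line at the median of each list, orange for genes called higher, blue for genes called lower and grey for genes not called. The immunoproteasome row lies below 0 throughout, with 7 of 8 called lower on this scale, beside 27.8% of all tested genes. When libraries are scaled to pan-leukocyte markers, 3 of 8 are called higher, beside 8683 of all 14005 tested genes.

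The upstream interferon pathway did not move in 1 direction. Ifng itself, the main inducer of class I genes, was at 93, 58 and 67 counts in saline mice and 73, 91 and 92 counts in PD mice, with a log2 difference of 0.22 ± 0.24 (SE), and Ifnb1, Ifna4 and Ifnk had too few counts to be tested. Of the 5 tested genes of interferons and their receptors, 3 rose and 0 fell, beside 31.1% higher and 27.8% lower over all tested genes. The receptor genes Ifngr1 (0.71), Ifnar2 (0.58) and Ifnar1 (0.17) rose, with Ifnar1 kept in 1 of the 6 fits that left out a mouse. Ifngr2 (0.10) was not called. On the endothelial scale 5 of the 5 were lower, beside 10372 of all 14005 tested genes. On the pan-leukocyte scale 5 of the 5 were higher, beside 8683 of all tested genes. Of 12 signalling genes, 4 rose and 6 fell, beside 31.1% higher and 27.8% lower over all tested genes. Socs3 (1.75) and Socs1 (1.08), inhibitors of cytokine signalling, rose most, and Irf1 (0.47), an activator of class I promoters, and Tyk2 (0.49) also rose, Tyk2 in 2 of the 6 fits that left out a mouse. Irf9 (-0.43), a DNA-binding factor of the type I interferon response, fell. Jak1 (-0.35), Ptpn2 (-0.32), Irf2 (-0.31) and Jak2 (-0.30) also fell, each in 6 of the 6 fits that left out a mouse. On the endothelial scale 1 of the 12 was higher and 10 lower (10372 of all 14005 genes were lower), and on the pan-leukocyte scale 6 were higher (8683 of all genes were higher).

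Nlrc5 acts at promoters through DNA-binding partners. Of 10 genes, partners and NF-kB subunits, 5 fell, 1 rose and 4 were not called, with a median log2 fold change of -0.15. Of all tested genes, 27.8% were lower and 31.1% higher, 58.9% in all. Rfxank (-0.54) and Rfx5 (-0.52), subunits of the RFX complex, fell most, followed by the NF-Y subunit Nfyc (-0.36), Creb1 (-0.33) and the NF-Y subunit Nfyb (-0.21), and Nfyb kept its call in 1 of the 6 fits that left out a mouse. Rela (0.40), the NF-kB subunit, rose. On the pan-leukocyte scale 5 of the 10 were higher, beside 8683 of all 14005 tested genes. On the endothelial scale 10 of 10 were lower, beside 10372 of all tested genes. Of the genes that lower class I at the surface, Susd6 (0.44) and Tmem127 (0.33) rose and Wwp2 (-0.23) fell, and these calls held in 4, 1 and 4 of the 6 fits that left out a mouse. On the endothelial scale all 3 were lower and on the pan-leukocyte scale all 3 higher, beside the same numbers of all tested genes.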

How the data were processed

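RNA of cells sorted as peritoneal ECs was sequenced in 3 saline mice and 3 PD mice, grouped by the treatment in the labels. The table deposited by the authors gives the count of reads and the FPKM of each gene in each mouse, for 22183 genes. The submitters' processing notes name fastp 0.18.0, Bowtie2 2.2.8, HISAT2, StringTie 1.3.1 and RSEM, and the genome build is not given in the sources used here. The deposited group mean FPKM, fold change, p-value and FDR columns were not used, and 0 columns of sample values were unmatched. Gene positions are from GENCODE M21 on GRCm38, in which 22128 identifiers matched, and promoter windows from RefSeq.

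Counts were filtered with filterByExpr, scaled by TMM and tested with the quasi-likelihood test of edgeR 4.0.16 (R 4.3.3) without covariates, with Benjamini-Hochberg adjustment over 14005 genes and a threshold of 0.05, where the study names limma. The script was tested on simulated data. Standard errors came from the quasi-likelihood F statistic, and FPKM was used for levels. Alternatives were DESeq2 1.42.0, limma 3.58.1 (voom, and log2(FPKM + 1)), other filters and scalings, a replicate block and leaving out each mouse. Mice were separate animals, and counting error is small at this depth for all class I genes other than H2-Q4. The genes and lists were chosen with earlier results of these data known. All 10 class I genes were named, and of each pathway list the called genes with the 2 largest changes in each direction. Other named pathway genes were chosen after their values were seen. A gene that this rule names is not reported here. The counting is not stated to use strand.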

Additional observations from a re-analysis of the deposited data

How the results depend on the processing

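Across DESeq2, limma-voom, limma-trend on log2(FPKM + 1), RLE factors, both other filters and the replicate block, 4 of the 10 class I genes were called, 2 in each direction. With total counts in place of TMM, 1 gene was called higher, since Nlrc5 had an adjusted p of 0.0571 by edgeR. With the replicate block 7909 of all genes and 41 of the pathway genes were called. Correlations of same-numbered mice were 0.10, 0.04 and -0.17, and those of differently numbered mice -0.27 to 0.23. Deviations from means of 3 mice cannot decide whether the numbers pair mice. Leaving out 1 mouse gave 2 to 5 class I genes called, 1 to 3 higher and 1 to 3 lower, and without saline mouse 2 Tapbp was at -0.0065. Scaling to the 12 endothelial markers called 9 class I genes, 0 higher and 9 lower, 1047 of all genes higher and 10372 lower, and 68 pathway genes, 3 higher and 65 lower, with a median of -0.98 for the class I genes. There H2-D1 was at -0.81, H2-K1 at -0.96, H2-Q4 at -0.35, B2m at -0.92, Tapbp at -0.99 and Nlrc5 at -0.63. Scaling to the 12 pan-leukocyte markers called 9 class I genes, 9 higher and 0 lower, 8683 of all genes higher and 623 lower, and 46 pathway genes higher and 0 lower, with a median of 0.51, H2-T23 at 0.22, Tap1 at 0.31 and Tap2 at 0.38. These shifts follow from dividing every library by another set of genes. Depth limits only H2-Q4 among the 10 genes.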

Other observations

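The 20-base spacing of TGACG and ATTGG was present in the promoter windows of 27 genes, of which 19 were tested, 6 called higher and 6 called lower in PD mice by edgeR's quasi-likelihood test, a share near the 58.9% called over all tested genes. Besides H2-D1, those called higher included Nfe2l1 (log2 fold change 1.04), a transcription factor of proteasome genes, and Nrarp (0.95), a Notch target, and those called lower included H2-M3 (-0.45) and Hspa14 (-0.48). Genes with the spacing thus lay on both sides of 0. They were picked from this list after their values were seen.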
